A study of Rattus norvegicus with 49 samples.

Results

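The liver is where most ingested alcohols and aldehydes are oxidised and where vitamin A is stored and broken down. Transcripts of 8 genes that do this work were followed in rats given furan, a contaminant of heated food: Adh1, Adh4, Adh5, Aldh1a1, Aldh2, Aldh3a2, Cyp26a1 and Lrat. They were found through the RefSeq accession of each array probe, which gave 11 probes for the 8 genes, out of 30367 probes, of which 18004 could be named by 1 of 15154 gene symbols. Adh1 is listed as Adh1c in the RefSeq table. The rats were male and female F344 animals, 7 to 8 weeks old at the start, and received furan in corn oil by gavage on 5 days a week for 90 days at 1 of 4 daily doses (0.03, 0.12, 0.5 and, highest, 2 mg per kg of body weight), or corn oil alone (0 mg/kg). Every group held 5 rats of the same inbred strain and age, except that 4 arrays were deposited for males at 0.03 mg/kg. Each array set liver RNA (Cy5) against a universal rat reference RNA (Cy3), so a level is the log2 ratio of liver to that reference, measured in whole liver with all its cell types.

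Alcohol dehydrogenases turn alcohols such as ethanol and retinol into aldehydes, and aldehyde dehydrogenases turn the aldehydes into acids. Retinol that is oxidised in both steps becomes retinoic acid, the form that binds nuclear receptors, while Cyp26a1 breaks retinoic acid down and Lrat attaches retinol to fatty acids for storage in stellate cells. A cytochrome P450 of the liver opens furan itself to a reactive dialdehyde.

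On 48 arrays 37.9% to 71.1% of the spots in the liver channel were well above background. The array of male 26 at 0.03 mg/kg, at 5.06%, was left out, so that group is 3 arrays here. Slides 1 to 4 carried 4 of 5 controls of each sex, 2 of 5 males and 1 of 5 females at 2 mg/kg, and slides 5 and 6 carried 0 controls, so slide and dose are partly mixed. The slide was therefore a block in every limma fit, and a fitted difference can depart from the difference of the plain group means. A gene was called when its Benjamini-Hochberg adjusted p over all 17661 tested probes was at most 0.05 and its fold change (FC) at least 1.5. All 8 genes were tested by their brightest probe, and 0 of them were saturated on any array. Hepatocyte markers (Alb, Apoa1, Ttr, Serpina1, Cps1 and Tat) were above background on all 48 arrays.

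The largest differences lay between the sexes. In control rats 5 of the 8 genes were called, and each was lower in males: Cyp26a1, Adh4, Adh5, Adh1 and Lrat. Their share stands against 6.42% of all tested probes called in that comparison, and the median male minus female difference was -0.80 on the log2 scale over the 8 genes against 0.02 over all probes. The 8 genes and the other gene lists were chosen with earlier results of these data known. The shares of calls here and below are thus descriptions and do not measure an excess. Over all doses 4 were called, the same genes without Lrat, where 4.97% of all probes were called and the median was -0.48. In males at 2 mg/kg Adh4 and Lrat were called higher and Aldh2 lower than in controls, 3 of 8 genes against 5.09% of all probes. None of the 3 was called when the slide block alone was left out. Of 16 other settings 13 called Adh4, 13 Aldh2 and 10 Lrat. In females at 2 mg/kg 0 of 8 were called by limma, against 1.42% of all probes. At an unadjusted p under 0.05 there were 3 of the 8, and 4255 of all 17661 probes. With both sexes averaged Adh4 was called, 1 of 8 against 2.22%.

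**Figure D1:**
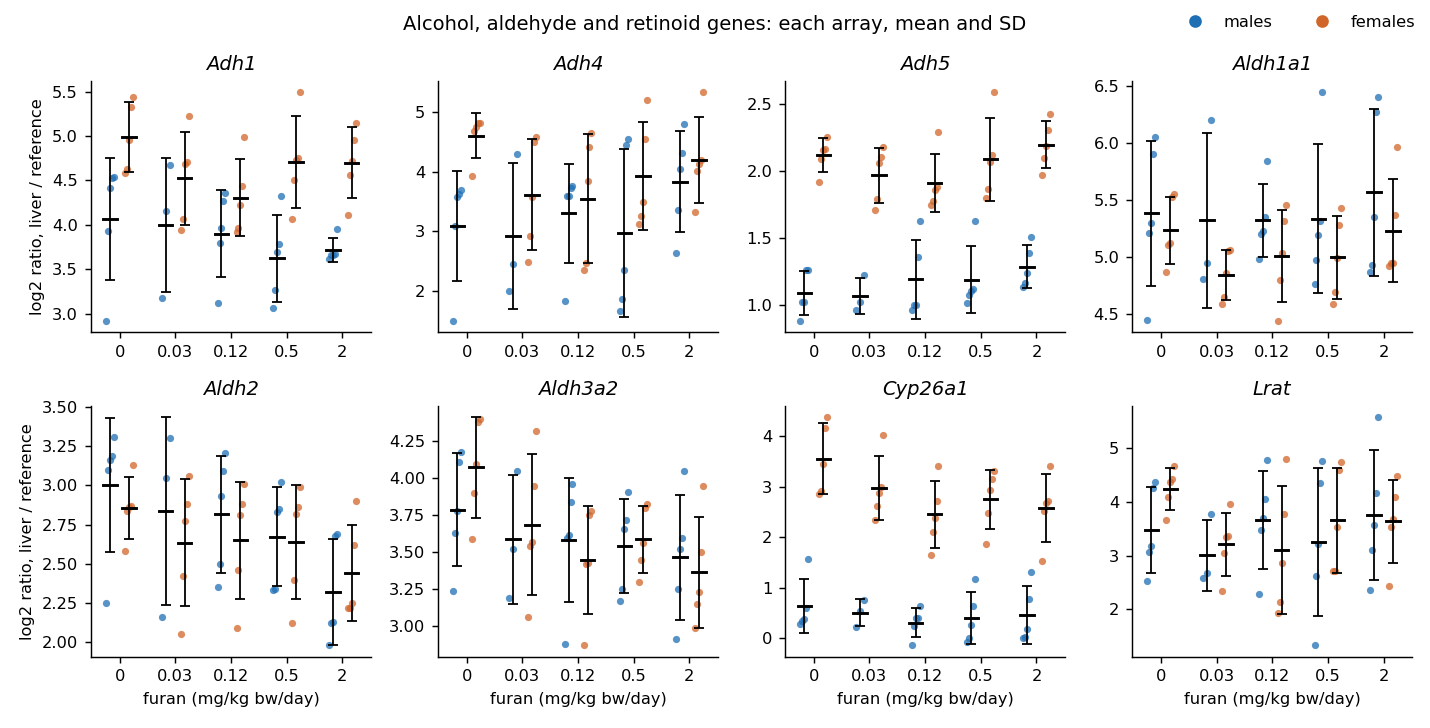
Each panel plots the log2 ratio of liver to reference for 1 gene (y axis) at each furan dose (x axis, evenly spaced), with points for single arrays, black bars for the mean and whiskers for the SD. Adh5 of the 23 males lies between 0.88 and 1.63, below the 25 females at 1.71 to 2.59, and Cyp26a1 of the males lies between -0.14 and 1.57.

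The alcohol dehydrogenase genes lie side by side. RefSeq lists on chromosome 2 a run of 6 protein-coding genes, in the order Adh7, Adh1, Adh6a, Adh6, Adh4 and Adh5, with no other protein-coding gene between them. All 3 members of this cluster were lower in male than in female controls. So were Adh6 and Adh7, which were in a list of related genes and are described with the other pathway genes. Adh6 was well above background on 0 of 23 male arrays and entered the tests through females alone. The 250 bases before the start of Adh4, a gene called lower in males, and of Adh6 are shown because the sequences are alike (GRCr8 build, both on the plus strand, chr2:229621842-229622091 for Adh4 and chr2:229576386-229576635 for Adh6). Capitals mark the motifs AGTTCA and AGGTCA, the 6-base sites that retinoic acid receptors bind, read on either strand.
Adh4: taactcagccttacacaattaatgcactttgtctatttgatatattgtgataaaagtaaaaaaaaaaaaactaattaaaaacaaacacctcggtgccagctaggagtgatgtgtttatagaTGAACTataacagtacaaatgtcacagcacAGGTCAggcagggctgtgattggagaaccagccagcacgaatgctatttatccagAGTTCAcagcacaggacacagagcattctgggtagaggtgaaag
Adh6: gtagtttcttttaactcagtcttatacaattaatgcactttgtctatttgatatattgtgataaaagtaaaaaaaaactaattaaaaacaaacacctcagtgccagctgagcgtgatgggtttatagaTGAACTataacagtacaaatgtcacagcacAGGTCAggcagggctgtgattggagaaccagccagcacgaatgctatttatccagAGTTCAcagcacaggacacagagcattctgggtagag
Shifted by 7 bases, 196 of 243 bases (80.7%) were identical, and both held 3 such motifs in the same order and strand. Of the 33469 promoters in the table, 24.3% held at least 1 of these motifs in their 250 bases and 0.487% held 3 or more. Neither the Adh4 nor the Adh6 sequence held a direct repeat of the motifs with 5 bases between them. Receptor binding was not measured, and a part of these motifs in the sex difference was not tested. The other pairs among Adh1, Adh4, Adh5, Adh6 and Adh7 reached 29.1% to 34.8% identity. The probe sequences were not used here, so hybridisation of an Adh4 probe to Adh6 RNA was not tested.

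Adh5, the enzyme that clears formaldehyde with glutathione, did not overlap between the sexes at any dose. The log2 ratios of the 5 control males were 1.02, 1.02, 1.26, 1.26 and 0.88, and those of the 5 control females were 2.09, 2.17, 2.26, 1.92 and 2.16. No male control reached the lowest female control. The fitted difference was -1.02 ± 0.11 (SE), an FC of 2.03 (limma, adjusted p 6.28e-09). Over all doses it was -0.88 ± 0.05 (adjusted p 1.06e-16), and each of the 23 males lay below each of the 25 females. On the 4 slides that carried a control of each sex the difference ran from -1.14 to -0.83. The difference at 2 mg/kg was 0.28 in males (95% interval 0.05 to 0.51, adjusted p 0.074) and 0.19 in females (-0.05 to 0.43, adjusted p 0.339), and neither was called.

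Adh4, a liver enzyme that oxidises ethanol and retinol, differed between the sexes and with furan. Control females gave log2 ratios of 4.74, 3.93, 4.81, 4.68 and 4.81, and control males gave 3.69, 3.09, 3.57, 3.62 and 1.51. All 5 control males lay below all 5 control females. The fitted difference was -1.43 ± 0.26 (SE), an FC of 2.70 (limma, adjusted p 0.000101), and it ran from -1.59 to -1.12 on the 4 slides with both sexes. It was -1.50 without the slide block and was then not called (adjusted p 0.138). Over all doses it was -0.82 ± 0.12 (adjusted p 1.07e-06), which the liver channel alone put at -0.44, under the fold minimum. Males at 2 mg/kg gave 2.64, 4.04, 4.31, 4.79 and 3.35. These overlap the control males, with 3 of 5 above every control. With the slide shift taken out, the control males ran from 2.19 to 2.94 and the males at 2 mg/kg from 3.53 to 4.37, with no overlap. The shifts came from the same fit as the group means, so these ranges restate that fit and add no separate evidence.

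The fitted rise of Adh4 in males at 2 mg/kg was 1.38 ± 0.27 (SE) on the log2 scale, an FC of 2.60 (limma, adjusted p 0.000286), and 0.328% of all probes moved as far. Its dimmer probe rose by 1.12 ± 0.26 (adjusted p 0.00164). On the 3 slides with a control and a treated male the treated one was higher by 1.09, 0.68 and 1.83. In all 48 fits that left out 1 array the rise was called, at 1.25 to 1.52. With no slide block it was 0.73 and was not called (adjusted p 0.441). The reference channel was above background on 7 of 48 arrays for the brighter probe and on 20 for the dimmer, so the denominator of these ratios was dim. The liver channel alone gave a rise of 1.07 (adjusted p 2.26e-06).

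In females at 2 mg/kg the Adh4 log2 ratios were 3.32, 4.19, 4.12, 5.32 and 4.01, against 3.93 to 4.81 in control females. The plain mean was lower than in controls, at 4.19 ± 0.72 (SD, n = 5) against 4.60 ± 0.38 (SD, n = 5), while the fit with the slide block gave a difference of 0.61 ± 0.28 (SE) upward (adjusted p 0.175). With no slide block it was -0.40, so its sign depended on the block. The gene was not called, and with arrays weighted by quality it was, at 0.72 (adjusted p 0.0345). The male minus female furan effect was 0.77 (95% interval 0.01 to 1.53), which was not called either (limma, adjusted p 0.257). With both sexes averaged the rise was 0.99 ± 0.20 (SE, adjusted p 0.00042), and it was 0.16 without the slide block (adjusted p 0.775).

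Adh1, the main ethanol-oxidising enzyme of the liver, was called between the sexes and not with furan. Its log2 ratios were 3.93, 4.54, 4.41, 4.53 and 2.92 in control males and 5.44, 4.95, 5.33, 4.63 and 4.58 in control females. The groups did not overlap, though the highest male at 4.54 and the lowest female at 4.58 nearly met. The fitted difference was -0.80 ± 0.21 (SE), an FC of 1.75 (limma, adjusted p 0.00444), and over all doses it was -0.83 ± 0.10 (adjusted p 5.89e-09). The 4 slides with a control of each sex gave -0.92, -0.65, -0.09 and -0.91, so slide 3 showed almost no difference. With no slide block the difference in controls was -0.92 and was not called (adjusted p 0.0626). At 2 mg/kg the change was -0.16 in males (95% interval -0.59 to 0.27) and 0.19 in females (-0.25 to 0.64).

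**Figure D2:**
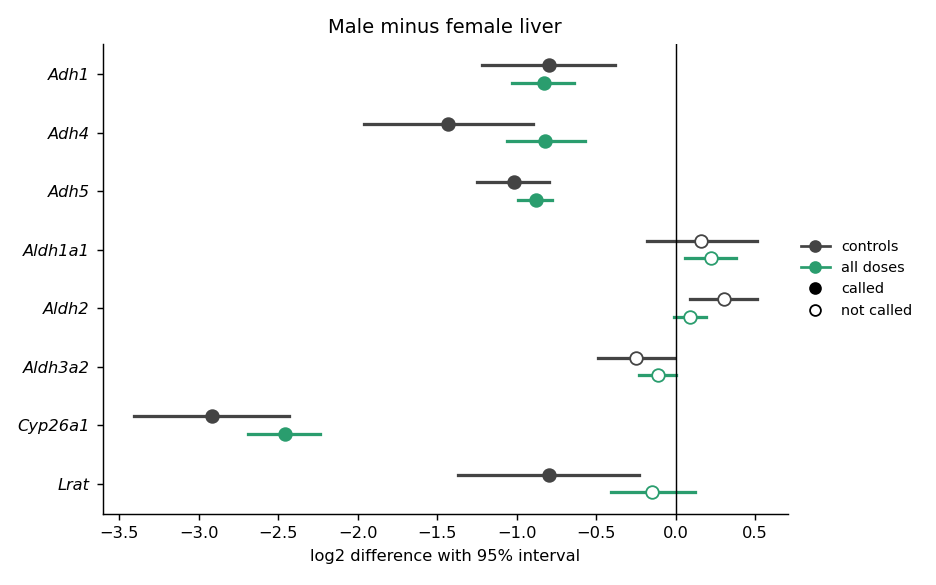
The male minus female log2 difference of each gene (x axis) is plotted with its 95% interval in controls (grey) and over all doses (green), filled where called. Cyp26a1 stands farthest from 0 at -2.92 in controls, and the 3 alcohol dehydrogenases lie between -1.43 and -0.80.

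Among the aldehyde dehydrogenases, Aldh2, the mitochondrial enzyme that clears acetaldehyde, fell in males at 2 mg/kg. The control males gave log2 ratios of 3.10, 3.19, 3.31, 3.16 and 2.25, and the males at 2 mg/kg gave 2.12, 2.68, 2.13, 2.69 and 1.98. Treated males were lower except that control animal 6, at 2.25, lay among them. The fitted change was -0.61 ± 0.11 (SE), an FC of 1.53 (limma, adjusted p 9.43e-05). With the slide shift of this same fit taken out, which restates the fit, the control males ran from 2.66 to 3.06 and the treated males from 1.91 to 2.48. On the 3 shared slides the treated male was lower each time, with differences of -0.42, -1.02 and -0.27. The size sat close to the fold minimum: without control 3, control 4 or treated animal 84 the change was -0.57, -0.57 and -0.48, with adjusted p values of 0.000373, 0.000513 and 0.00113, and was not called. A fit that left out the slide block gave -0.68 with an adjusted p of 0.0529, and median centring of the arrays in place of loess gave -0.47 (adjusted p 0.0119), under the fold minimum.

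In females Aldh2 was not called. Their log2 ratios were 2.87, 3.13, 2.84, 2.58 and 2.86 in controls and 2.22, 2.90, 2.25, 2.62 and 2.22 at 2 mg/kg. The ranges overlapped, and 3 of the 5 treated females, on slides 5 and 8, were below every control. The fitted change was -0.06 (95% interval -0.29 to 0.17, adjusted p 0.779), while the difference was -0.23 on each of the 2 slides that held a control and a treated female and -0.41 without the slide block (adjusted p 0.215). The male minus female furan effect was -0.55 ± 0.15 (SE), with a limma adjusted p for the interaction of 0.0492 and an FC of 1.46, which is under the fold minimum. Leaving out the slide block gave -0.27 (adjusted p 0.948). The interaction was called in 0 of 8 genes, against 1.05% of all probes. At an unadjusted p under 0.05 there were 2 of the 8, and 3313 of all 17661 probes.

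Aldh1a1, which makes retinoic acid from retinaldehyde in the cytosol, was 0.40 ± 0.18 (SE) higher in males and 0.45 ± 0.18 higher in females at 2 mg/kg (limma, adjusted p 0.0985 and 0.126). Males gave 4.45, 5.21, 5.30, 5.90 and 6.05 as controls and 4.87, 4.93, 5.35, 6.27 and 6.40 at 2 mg/kg, in ascending order, so the groups overlapped. Without the slide block the differences were 0.18 in males and 0.00 in females. On shared slides they were 0.34, 0.37 and 0.42 in males and 0.84 and -0.15 in females. Averaged over both sexes the fitted difference was 0.42 with an adjusted p of 0.0163 and an FC of 1.34, below the fold minimum. The liver channel alone gave 1.21 in males and 1.06 in females, both called (adjusted p 0.000337 and 0.0146). That setting also normalised the arrays in another way, and the part of the reference channel was not tested. Without female control 4 the Aldh1a1 difference was called in females as well, at 0.64 (adjusted p 0.0292).

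Aldh3a2, the enzyme for long fatty aldehydes, was called in 0 comparisons (3 of 12 at an unadjusted p under 0.05 by limma, namely both comparisons of the sexes and females at 0.12 mg/kg). Its 2 probes parted in females at 2 mg/kg, at -0.26 (95% interval -0.52 to 0.00) for the brighter and 0.24 (-0.08 to 0.56) for the dimmer.

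**Figure D3:**
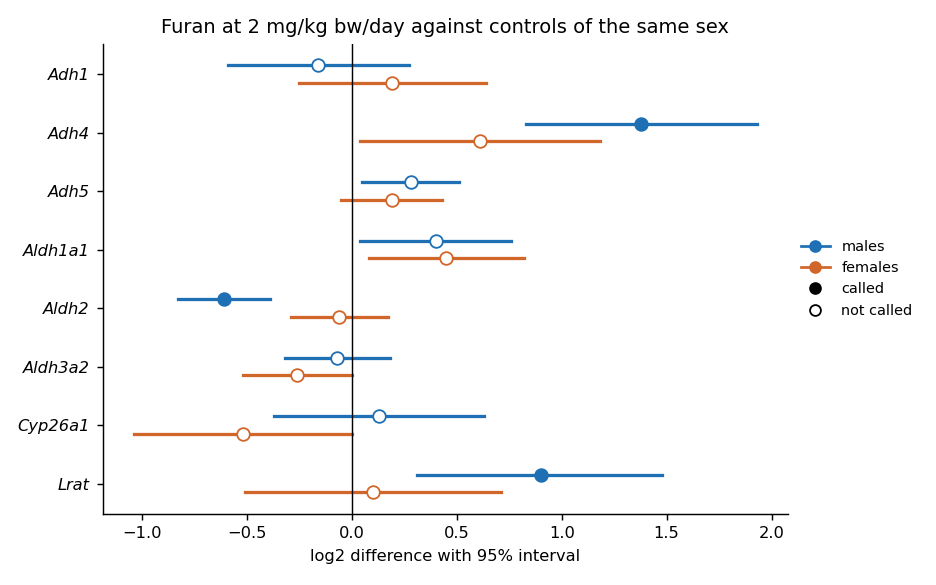
The log2 difference at 2 mg/kg against controls of the same sex (x axis) is plotted for each gene with its 95% interval, males in blue and females in orange, filled where called. Adh4, Aldh2 and Lrat are filled in males, at 1.38, -0.61 and 0.90, and 0 genes are filled in females.

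Cyp26a1, which hydroxylates retinoic acid so that it can be cleared, had the widest sex difference of the 8 genes. Control males gave log2 ratios of 0.39, 0.60, 0.35, 1.57 and 0.29, and control females gave 4.17, 2.85, 2.92, 4.38 and 3.45. The highest control male lay below the lowest control female. The fitted difference was -2.92 ± 0.24 (SE), an FC of 7.58 (limma, adjusted p 6.88e-12), and it ran from -3.77 to -2.57 on the 4 slides that held controls of both sexes. Over all doses it was -2.46 ± 0.11 (adjusted p 4.78e-20), with 22 of 23 males below every female. The probe was well above background on 25 of 25 female arrays and 15 of 23 male arrays, so the male levels are near the lower limit of the measurement. Under the 15 other settings that tested it the difference in controls was called each time, at -3.09 to -2.36.

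The 250 bases before the start of Cyp26a1 are shown because they hold a pair of these motifs in the arrangement that retinoic acid receptors bind (GRCr8, plus strand, chr1:244883572-244883821). Capitals mark the motif AGTTCA read on the opposite strand.
Cyp26a1: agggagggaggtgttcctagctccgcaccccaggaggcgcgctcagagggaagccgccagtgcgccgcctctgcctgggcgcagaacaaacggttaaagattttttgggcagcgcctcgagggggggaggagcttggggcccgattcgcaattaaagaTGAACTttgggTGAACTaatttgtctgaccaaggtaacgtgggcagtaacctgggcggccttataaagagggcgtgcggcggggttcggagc
The motif occurs as a direct repeat with 5 bases between its copies, 92 to 76 bases before the start. A direct repeat of AGTTCA or AGGTCA with that spacing, on either strand, was found in 10 of the 33469 promoters (0.0299%). Neither motif was found in the 250 bases of Adh1, Adh5, Adh7, Aldh1a1, Aldh3a2 or Lrat. For Aldh2 there was no promoter sequence to search. Receptor binding was not measured.

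With furan, Cyp26a1 was called at no dose in females by limma, though each fitted change was below 0. Females at 2 mg/kg gave 2.52, 2.67, 1.54, 3.42 and 2.71, of which 4 were below every control. The fitted change was -0.52 ± 0.26 (SE, limma adjusted p 0.206). At 0.03, 0.12 and 0.5 mg/kg the changes were -0.21, -0.65 and -0.45, measured against the same 5 controls, with adjusted p values of 0.912, 0.503 and 0.394. On the 2 slides with a control and a treated female at 2 mg/kg the differences were -0.03 and -0.17. At 0.5 mg/kg 2 of 3 shared slides gave a difference above 0 (-0.30 to 0.40), at 0.03 mg/kg 1 of 3 (-0.15 to 0.14) and at 0.12 mg/kg 0 of 3 (-0.74 to -0.03). In males the change at 2 mg/kg was 0.13 (95% interval -0.37 to 0.63).

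Lrat, the enzyme that stores retinol as esters, was higher in males at 2 mg/kg but with a wide spread. Control males gave log2 ratios of 4.26, 3.07, 3.18, 4.38 and 2.53, and males at 2 mg/kg gave 2.37, 3.10, 3.57, 5.58 and 4.16. The groups overlapped, with 1 treated male above every control and 1 below. The fitted rise was 0.90 ± 0.29 (SE), an FC of 1.86 (limma, adjusted p 0.0214). The 3 shared slides did not point the same way, with differences of 1.32, -0.81 and 1.63. The call was lost without control 3, 4 or 6 or treated animal 86 or 87, at 0.75, 0.80, 0.82, 0.73 and 0.74 (adjusted p 0.0628, 0.0599, 0.0622, 0.0758 and 0.0972). With no slide block the rise was 0.27 (adjusted p 0.787), and 10 of 16 other settings called it. The reference channel was above background on 1 of 48 arrays. A dimmer Lrat probe was above background on 7 of 48 arrays and was not tested, so the brighter probe stands alone.

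In controls Lrat was lower in males, with a difference of -0.80 ± 0.28 (SE, limma adjusted p 0.038), and female controls gave 4.37, 3.66, 4.09, 4.43 and 4.67. Of the control males 3 lay below all of these and 2 among them. This call was lost in 7 of the 48 fits that left out 1 array, at -0.83 to -0.58, namely those without male control 2, 3, 4 or 6 or female control 2, 4 or 9. It was called under 8 of 16 other settings, and the liver channel alone gave -0.28 (adjusted p 0.363). The 4 slides with both sexes gave -0.91, -0.41, -1.36 and 0.02. Taken over every dose Lrat was not called, at -0.15 ± 0.13.

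**Figure D4:**
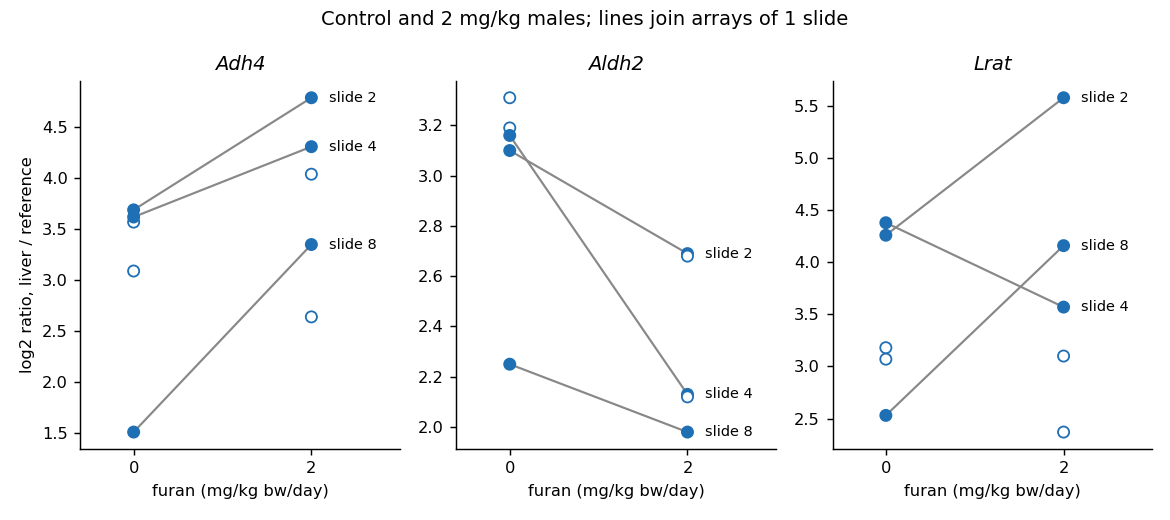
The log2 ratio of liver to reference (y axis) is plotted for each of the 5 control males and the 5 males at 2 mg/kg (x axis), with lines between arrays of the same slide and open points for arrays whose slide held 1 of the groups. The lines rise for Adh4 and fall for Aldh2 on all 3 slides, while for Lrat 2 rise and 1 falls.

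Lrat is made by stellate cells, so the stellate cell markers were set beside it. Of the 6 tested, Lrat itself among them, 1 was called in males at 2 mg/kg, which was Lrat, and the median change of the list was 0.05. The mean log2 ratio of the list ran from 0.96 to 1.63 in control males and from 0.82 to 1.70 in males at 2 mg/kg. In control females the list's mean ran from 1.40 to 1.82. In whole liver a change in the number of stellate cells, or of any other cell type, and a change in RNA per cell cannot be told apart. Of the 4 bile duct markers tested, 3 rose in males at 2 mg/kg (Epcam, Krt19 and Spp1), and the list's mean ran from -2.06 to -0.64 against -2.45 to -1.79 in control males. The 6 hepatocyte markers had a median change of -0.45 in males, with 1 called lower (Tat), and their mean ran from 5.23 to 6.91 against 5.58 to 7.52. Of the 6 pericentral markers 1 was called lower (Oat), with a median of -0.35, and of the 6 periportal markers 1 (Sds), with a median of -0.47. Kupffer cell and endothelial markers had medians of -0.28 and -0.06 and 0 called in males (5 and 3 tested). The part of these shifts in the changes of Adh4, Aldh2 and Lrat was not tested.

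In females at 2 mg/kg the hepatocyte markers had a median change of 0.01 and 1 bile duct marker, Epcam, was called higher. Between control males and females the hepatocyte list had a median of 0.20 with 1 of 6 called, which was higher in males (Ttr). Of the 6 stellate cell markers 2 were called lower in control males, Lrat among them, with a list median of -0.29. Of the Kupffer cell and endothelial markers 1 each was called lower (Adgre1 and Lyve1), with list medians of -0.45 and -0.44. Of the 6 periportal markers 1 was called higher (Pck1) and 2 lower (Ass1 and Hal), with a median of 0.07, and of the 6 pericentral markers 1 was lower (Oat), with a median of -0.06. Their part in the sex differences was not tested.

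At the lower doses 0 of 8 genes were called in either sex by limma. All probes gave 0% at 0.03 mg/kg, 0.306% at 0.12 mg/kg and 0.362% at 0.5 mg/kg in males, and 0.017%, 0.0113% and 0.0283% in females. At an unadjusted p under 0.05 the counts of the 8 genes were 0, 2 and 2 in males and 0, 2 and 0 in females. Of all 17661 probes the counts were 727, 1150 and 1973 in males and 1142, 1507 and 2684 in females. The changes ran from -0.13 to 0.56 in males at 0.03 mg/kg, from -0.10 to 0.62 at 0.12 mg/kg and from -0.38 to 0.57 at 0.5 mg/kg, with Adh4 the highest at each of these doses. Its fitted means in males were 2.58 in controls and then 3.13, 3.19, 3.15 and 3.96 from the lowest dose up, with an SE of 0.27 at 0.03 mg/kg and 0.20 in the other groups, so the 3 lower doses lay within an SE of each other. Without the slide block the Adh4 changes at the lower doses were -0.17, 0.21 and -0.12, so the sign turned at 0.03 and 0.5 mg/kg. At 0.12 mg/kg the differences on the 4 shared slides were 0.02, -0.09, 0.14 and 2.20, the last between male 41 and control male 6. Aldh2 had fitted means in males of 2.92 in controls and then 2.79, 2.82, 2.68 and 2.31 from the lowest dose up. All doses of a sex share the same 5 controls. In females the changes ran from -0.32 to -0.01 at 0.03 mg/kg, from -0.65 to 0.08 at 0.12 mg/kg and from -0.45 to 0.17 at 0.5 mg/kg.

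Other genes of these pathways were looked at as lists of 55 genes in all, of which 50 were on the array and 44 tested. In controls 8 of the 44 were called between the sexes, where 6.42% of all probes were, with 3 higher and 5 lower in males and a median of 0.12. Adh6 is among the 5, though it entered the tests through females alone, so this share leans on that filter. Rdh16, a retinol dehydrogenase, was 2.88 ± 0.17 (SE) higher in males (limma, adjusted p 6.26e-16), at 2.37 to 4.31 in control males against 0.66 to 1.40 in control females. Aldh1b1, a mitochondrial aldehyde dehydrogenase, was lower in males, with a difference of -2.42 ± 0.24 (adjusted p 1.16e-09), at 2.24 to 3.55 against 4.65 to 5.55. Neither gene's control groups overlapped.

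Adh6 was well above background on 0 of 23 male and 23 of 25 female arrays over all doses. It was called lower in males, but it entered the tests through females alone, so its p-value is not given. In controls its liver-channel signal was at least 2.95-fold higher in females, counting males at the dimmest signal well above background. Adh7, an enzyme with a preference for retinol, was lower in males, at a difference of -0.99 ± 0.14 (adjusted p 1.07e-06), at 0.39 to 0.91 against 1.07 to 1.97. Rxrg, a partner receptor of the retinoic acid receptors, was lower as well, by a log2 difference of -0.84 ± 0.17 (adjusted p 0.000294), and its groups met at 4.39 to 5.45 in males and 5.36 to 6.13 in females. Over all doses 6 of the 44 were called against 4.97% of all probes, 2 higher and 4 lower in males. Adh6 is again among the 4 lower. The 6 genes included Rdh16 at 2.87, Aldh1b1 at -2.45, Adh7 at -0.90 and Rxrg at -0.85.

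**Figure D5:**
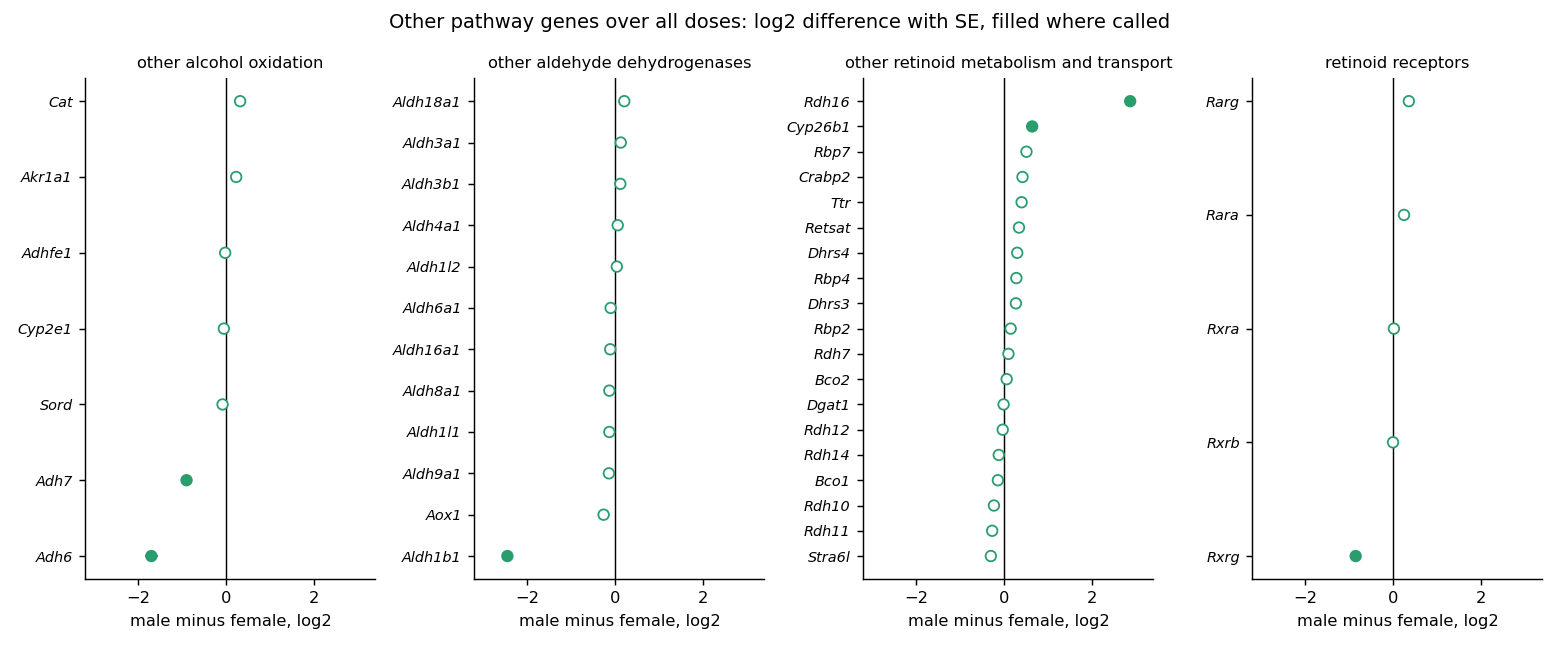
For 43 of the 44 tested genes of the 4 pathway lists, the male minus female log2 difference over all doses (x axis) is plotted with its SE, often smaller than the point, and filled where called. Rdh16 at 2.87 and Aldh1b1 at -2.45 lie farthest from 0, and the unfilled genes gather around it.

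With furan at 2 mg/kg 1 of the 44 was called in males, below the 5.09% of all probes called there, and 0 in females by limma, where 1.42% of all probes were. The medians of the 44 were -0.21 and 0.01. Akr1a1, an aldehyde reductase, rose by 0.87 ± 0.12 (SE) in males (limma, adjusted p 4.34e-06), from -0.46 to 0.09 in controls to 0.06 to 1.11 at 2 mg/kg. The groups met at their edges. With both sexes averaged it rose by 0.70 ± 0.09 (adjusted p 1.58e-06). The furan effect was called as different between the sexes for 2 of the 44, against 1.05% of all probes. Such calls depended on the processing. Over all probes they numbered 185 in the main fit, 5 without the slide block, 19 with the dim array and 3 with the authors' values. Aldh8a1, a cytosolic aldehyde dehydrogenase, and Sord, which oxidises sorbitol, had male minus female furan effects of -0.79 ± 0.20 and -0.62 ± 0.15 (limma, adjusted p 0.035 and 0.0318).

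Among arrays of the same sex and slide, Adh4 and Adh5 varied together (Pearson r 0.80, Spearman rho 0.78 over 48 arrays, among 9840 genes compared). Hibch, at r 0.82, was the gene most like Adh4, and Adh4 was the one most like Adh5, ahead of Acp1 at 0.78. Adh1 was most like Tmprss2 and Urod (0.71 and 0.69), Aldh1a1 like Cyria and Ephx1 (0.75 and 0.74), Aldh2 like Rnase4 and Man2b1 (0.86 and 0.82), and Lrat like Fxyd6 and Tmem204 (0.74 and 0.73). Aldh3a2 correlated with Smpd1 at 0.77 and Cyp26a1 with Ube2e2 at 0.68. Adh4 correlated at 0.59 with Lrat and at -0.36 with Aldh2. These points share doses, dye and array quality, and they are given as a description.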

How the data were processed

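Liver RNA in Cy5 was set against reference RNA in Cy3 on 2-colour arrays of 62976 spots, always in the same dye orientation. The scanner files came, per the file headers, from Agilent Feature Extraction 10.7.3.1 and hold the median intensity of each spot and its background, 0 or 1 quality marks, and a log10 ratio of liver over reference. The deposited series matrix holds log2 ratios that the authors normalised. Because 41 of its 49 columns resembled another array of their group more than their own, it was used by group, in 1 alternative. Whether the columns or the arrays are out of order within groups is not known. Animal numbers here are those of the sample titles, and the check of same-numbered rats relies on them. The labels state that an array of a male did not pass quality control, and whether it is the dim array left out here is not known.

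Signals were corrected by normexp (offset 50) and normalised by loess within arrays in limma 3.58.1 (R 4.3.3). Spots marked as outliers were left out, and spots of a probe were averaged. Probes entered the tests if at least 4 arrays of any group had a liver signal well above background. The fit had a mean per group and the 8 slides, as the files give them, as a block over 48 arrays. Tests are 2-sided, and the number of arrays limits precision. On simulated data with 50 of 17661 probes changed at each fold in males at 2 mg/kg, 44% of 1.5-fold and 100% of 2-fold changes were called. The 1.5-fold share is held down by the fold minimum itself. The simulated noise was normal and independent, with no array that stood apart, so real shares may be lower. Alternatives changed the background correction, normalisation, probe filter, slide block, arrays included and channel used.

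Genes are named as the 8 members, as up to 5 called pathway genes per comparison, as the 2 most alike genes per member, and as markers set beside a result, except a few items that are not reported here. Names and promoters come from RefSeq (GRCr8), and motifs were searched in Python 3.11.15. Members and lists were chosen with earlier results of these data known.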

Additional observations from a re-analysis of the deposited data

Results flagged for a closer look

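Of 72 groups of 5 looked at over the 8 genes, 8 held an array that stood apart from the rest. Chance alone marks about 1 group in 20 where values are independent and normal. The values used are log2 ratios with the slide shift left in, and the genes share arrays. The 8 groups can therefore not be set against that rate. Control male 6 was low in Adh4 (1.51, nearest 3.09) and in Aldh2 (2.25, nearest 3.10), and control male 5 was high in Cyp26a1 (1.57, nearest 0.60). Control female 4 was low in Adh4 (3.93, nearest 4.68). With the slide shift taken out, Adh4 of control female 4 was 4.27, the highest of its group, Adh4 of control male 6 was 2.19 against 2.23 for the next, and Adh4 of male 52 was 3.03 in a group with a median of 2.99. At 0.12 mg/kg, male 52 was low in Adh4 (1.84) and female 42 high in Adh5 (2.29). Male 65 at 0.5 mg/kg was high in Adh5 (1.63), and male 83 at 2 mg/kg was high in Adh1 (3.95).

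Limma's interaction test at 2 mg/kg flagged 3 genes at an adjusted p of at most 0.05. Without the fold minimum 312 of 17661 tested probes passed, and with it 185 did. Aldh2 was under that minimum and so was not called. The male minus female effect was -0.55 for Aldh2 (adjusted p 0.0492), -0.79 for Aldh8a1 (0.035) and -0.62 for Sord (0.0318). Without female control 4, female 90, male 81, male 86 or control male 6, the Aldh2 value was -0.60 to -0.59 and also passed the fold minimum. Leaving out the slide block put the Aldh2 value at -0.27 (limma, adjusted p 0.948).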

How the results depend on the processing

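The slide block mattered most. With no slide block the genes called were 0 in males at 2 mg/kg (against 3), 0 with both sexes averaged (against 1) and 2 between control sexes (against 5), with or without the dim array. The authors' values with no slide block, an alternative chosen after seeing the data, gave 1, 0 and 2. In females at 2 mg/kg the liver channel alone and array weights each called 1 (against 0). With both sexes averaged the liver channel alone called 2 and the adjusted p alone 4. In males, between control sexes and over all doses, where 3, 5 and 4 were called, the liver channel alone called 4 (Aldh1a1 added), 4 and 3. The adjusted p alone called 3, 6 (Aldh2 added) and 5 (Aldh1a1 added), and the authors' values lost Adh4 over all doses, leaving 3. For the interaction the scanner software's ratio and the adjusted p alone each called 1 (against 0). The cause of these differences was not tested, except that the adjusted p alone drops the fold minimum.

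Leaving out each array in turn gave 1 to 3 calls in males at 2 mg/kg (1 without control male 3 or 4), 0 to 1 in females, 1 to 2 with both sexes averaged (2, with Lrat added, without female 90, control male 5 or male 84) and 0 at lower doses. It gave 4 to 5 between control sexes, 4 over all doses and 0 to 1 for the interaction. Median centring moved the median of all probes by more than 0.1 between control sexes (to -0.16), in the interaction (to 0.15) and in females at 0.5 mg/kg (to -0.12). No called value turned its sign under any setting. Without slides 5 and 6 the counts were the same. Cyp26a1 gave no value when probes had to be above background on all arrays, since its male signal was often dim.

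Animal numbers shared between the sexes are only numbers: residuals of same-numbered rats correlated at -0.29 to 0.26 over 8 pairs. With the number as a replicate block the counts were unchanged at 3, 0, 1, 0, 5, 4 and 0, with a correlation within numbers of 0.0211.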
